A study of Mus musculus with 15 samples.

Results

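The 10 genes described here were Cxadr, whose product CXADR (coxsackievirus and adenovirus receptor) is a cell adhesion protein of epithelial junctions, and 9 genes used as markers of the ovarian surface epithelium: Upk3b, Upk1b, Krt7, Krt8, Krt18, Krt19, Msln, Muc16 and Epcam. They were chosen by symbol, and all 10 were found among the 27907 genes of the table. Ovaries of 7 HSD17B1-KI and 8 WT females were compared, 1 mRNA library per mouse. HSD17B1-KI mice were homozygous for Ser143Ala, a point mutation made with CRISPR/Cas9 that puts alanine in place of a serine needed for catalysis by HSD17B1 (17β-hydroxysteroid dehydrogenase 1) and removes the conversion of estrone to estradiol by this enzyme, and WT mice came from the same breeding of heterozygous parents. All mice were 6 months old and in estrus, and none was treated. The mutation is carried by every cell, whole ovaries were used, and a change of 1 amino acid leaves the transcript in place, so that transcript levels do not check the genotype labels.

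The ovary is covered by a single layer of flat to cuboidal epithelium, which is continuous with the mesothelium of the body cavity. It is torn at ovulation and repaired afterwards. Its cells carry keratins of simple epithelia together with mesothelial proteins such as mesothelin, CA125 and uroplakins. Many of the same keratins and EPCAM are also made by the oviduct epithelium, which lies close to the ovary and can be dissected with it. The question was whether these genes differed between the genotypes, and whether Cxadr moved with the surface epithelium genes or with the oviduct genes, of which Ovgp1 (oviductal glycoprotein 1) is the best known.

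The promoters of 4 genes are shown first, because Krt8, Krt18 and Epcam moved together closely across mice and Upk3b did so less. The sequences are from RefSeq on GRCm38.p6, on the strand of the gene, and end before the first annotated base of the gene. Of the 10 genes, 6 had a promoter entry of 300 bases, and Cxadr, Upk1b, Krt19 and Msln had none. Capitals mark CACCTG, the E-box bound by ZEB and SNAI repressors of epithelial genes, and GGGCGG, the SP1 box, on either strand.
Upk3b, chr5:136038246-136038495, plus strand: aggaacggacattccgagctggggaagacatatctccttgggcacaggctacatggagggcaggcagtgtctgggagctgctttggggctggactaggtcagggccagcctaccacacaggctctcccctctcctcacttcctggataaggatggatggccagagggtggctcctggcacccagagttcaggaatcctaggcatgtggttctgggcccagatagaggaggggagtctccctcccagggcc
Krt8, chr15:102004483-102004592, minus strand: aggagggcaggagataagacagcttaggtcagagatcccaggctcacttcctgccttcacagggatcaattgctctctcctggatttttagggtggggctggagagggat
Krt18, chr15:102027966-102028179, plus strand: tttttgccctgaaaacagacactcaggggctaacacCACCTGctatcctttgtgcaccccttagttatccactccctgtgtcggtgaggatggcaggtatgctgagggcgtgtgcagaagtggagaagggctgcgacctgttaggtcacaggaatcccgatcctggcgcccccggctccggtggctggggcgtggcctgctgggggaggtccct
Epcam, chr17:87635729-87635978, plus strand: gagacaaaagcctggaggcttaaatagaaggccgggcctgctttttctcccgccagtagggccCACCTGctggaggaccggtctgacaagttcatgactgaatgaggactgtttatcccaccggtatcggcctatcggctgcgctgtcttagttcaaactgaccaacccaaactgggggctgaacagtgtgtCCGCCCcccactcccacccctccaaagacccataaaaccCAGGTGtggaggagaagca
Over the whole 300-base windows, CACCTG was found in Krt7, Krt8, Krt18 and Epcam and not in Upk3b or Muc16, against 20.2% of all 32851 promoter windows. GGGCGG was found in Krt7 and Epcam, against 35.7% of all windows. TATAAA, the TATA box, was found in Krt8 alone, downstream of the stretch printed, against 13.6% of all windows, and TGANTCA, the AP-1 site, was in none of the 6, against 7.81%. A match describes these letters only.

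Reads on genes ranged from 26544745 to 72362981 per mouse, and all 10 genes passed the filter for low expression, a mean of 2 normalized counts. Normalized counts are the reads on a gene divided by 1 size factor per library. Libraries WT 1 and WT 8 stood apart, with 203321 and 127890 normalized counts of Ovgp1, compared with 108 to 14963 in the other 13 mice. The summed level of 11 oviduct markers ranged from 1800 to 32709 normalized counts in HSD17B1-KI, from 1277 to 246210 in WT, and to 20607 in WT without WT 1 and WT 8. The genotype differences of the 10 genes and the medians of the gene lists are therefore given with all mice and without these libraries, a choice made after the data were seen.

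Cxadr was lower in HSD17B1-KI than in WT ovaries. It was the only one of the 10 genes that was differentially expressed (DE), with a mean ratio of 0.666, and all 7 HSD17B1-KI mice lay below all 8 WT mice. The other 9 genes had log2 fold changes below 0 as well, from -0.67 to -0.21, but none was DE. In the keratins and Epcam the difference was much smaller without the libraries WT 1 and WT 8.

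**Figure D1:**
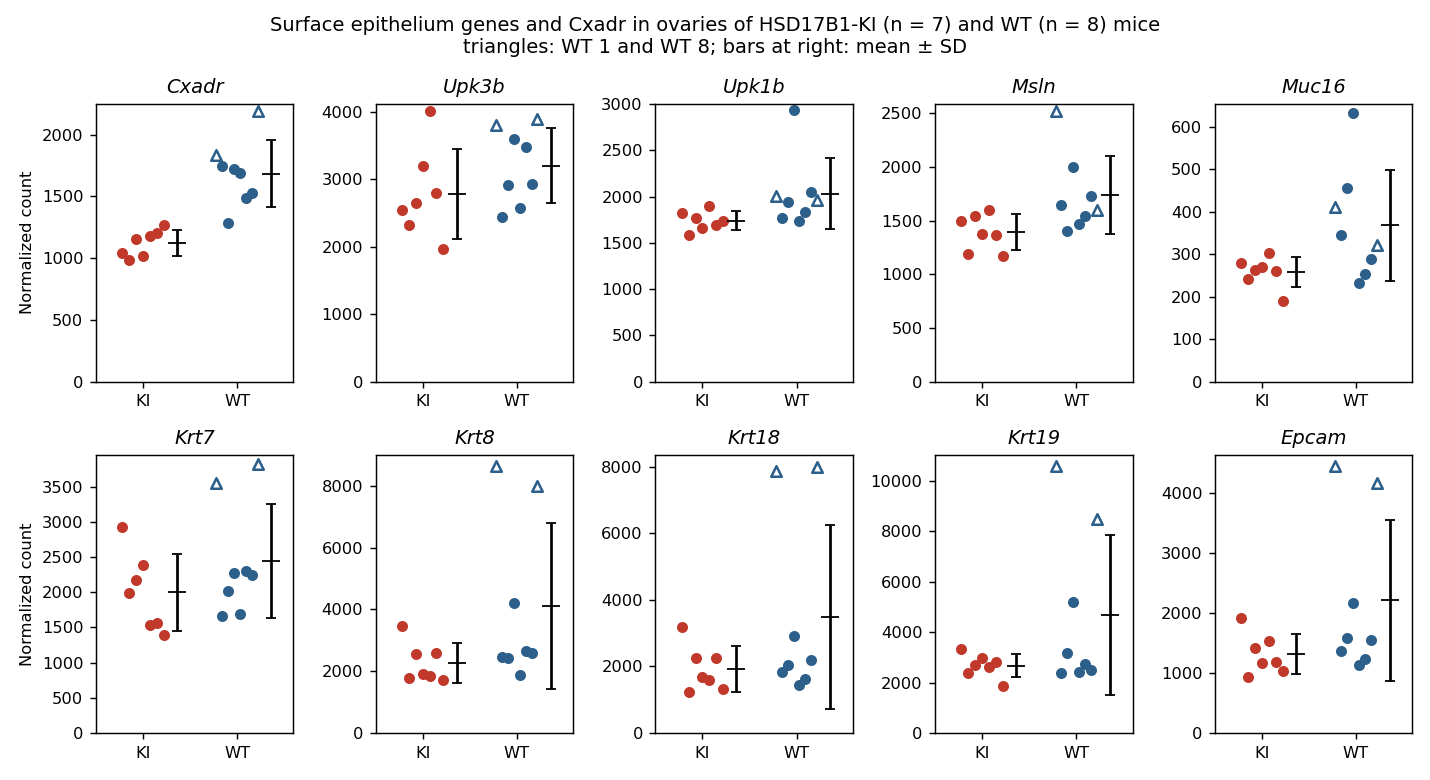
Normalized counts (y axis, from 0) of the 10 genes in each mouse, with HSD17B1-KI (n = 7) in red, WT (n = 8) in blue and the mean ± SD beside each group. Cxadr of the HSD17B1-KI mice lies between 986 and 1269, below all WT mice, whereas in Krt8, Krt18, Krt19 and Epcam the open triangles of WT 1 and WT 8 lie far above all other mice.

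Cxadr (ENSMUSG00000022865) lies on chromosome 16 from 78301489 to 78359774 on the plus strand (GENCODE M21, GRCm38). In HSD17B1-KI mice it had between 986 and 1269 normalized counts, with a median of 1158, and in WT between 1284 and 2190, with a median of 1704. The groups did not overlap, but the gap between them was narrow, since HSD17B1-KI 7 had 1269 and WT 3 had 1284. Among all 21525 genes tested, every HSD17B1-KI mouse was below every WT mouse in 0.0511%. The log2 fold change of Cxadr was -0.58 (SE 0.098), with a 95% interval from -0.78 to -0.37 and an adjusted p of 0.0276 by limma-trend over all genes tested. With this test 0.214% of all genes were DE in either direction and 0.00465% were lower in HSD17B1-KI, which was Cxadr alone. The exact permutation test, which enumerates every assignment of the mice to groups of this size, gave p = 0.000311 for Cxadr, two-sided and unadjusted. This p follows from the lack of overlap between the groups and is no separate support.

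With the recovered reads, Cxadr was also DE by edgeR (adjusted p = 0.0242) and by DESeq2 (adjusted p = 2.06e-05), where 0.00929% and 0.646% of all genes were DE and lower. Over the alternatives without a block or a covariate from the members, its adjusted p ranged from 2.06e-05 to 0.0802. Leaving out 1 mouse kept Cxadr DE in 7 of 15 fits. It was not DE without HSD17B1-KI 1, 2, 3 or 4 or without WT 1, 2, 4 or 5, where the adjusted p lay between 0.0547 and 0.0801 and the log2 fold change between -0.59 and -0.55. Without WT 1 and WT 8, the mean of the remaining 6 WT mice was 1575 ± 178 (SD, n = 6), and the log2 fold change was -0.49 (SE 0.087). The adjusted p was then 0.0802 by limma-trend. All 7 HSD17B1-KI mice were below these 6 WT mice, since leaving mice out of groups without overlap cannot make them overlap. The exact permutation test over 1716 splits gave p = 0.000583, which follows from this separation and is no separate support.

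The nearest tested gene on each side of Cxadr on chromosome 16 was not DE by limma. Btg3, an antiproliferative gene on the minus strand at 78332637 to 78377192, overlaps Cxadr by 27138 bases, of which 695 are exonic in both genes. Normalized counts of Btg3 were 460 ± 72.4 in HSD17B1-KI (SD, n = 7) compared with 494 ± 88.3 in WT (SD, n = 8), a log2 fold change of -0.098 (adjusted p = 0.852, limma). The libraries were stranded, but the strand setting of the counting is not given in the sources used here, so reads of the shared exons cannot be assigned with certainty. E330011O21Rik and Gm49590 also overlap Cxadr on the minus strand and were not analysed here. On the other side, the nearest tested gene was RP23-156A3.2, with a log2 fold change of 0.025 (adjusted p = 0.973, limma).

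Upk3b, Upk1b, Msln and Muc16 encode proteins of the apical membrane typical of mesothelium. UPK3B and UPK1B are uroplakins, MSLN is mesothelin, and MUC16 is the membrane mucin CA125, which binds mesothelin. This grouping of the 9 markers, with the keratins and Epcam as the other group, was made after the values were seen. None of these 4 genes was DE, and the groups overlapped in each.

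Upk3b (ENSMUSG00000042985, chromosome 5 from 136038496 to 136046487) ranged from 1963 to 4021 normalized counts in HSD17B1-KI with a median of 2642, and from 2441 to 3900 in WT with a median of 3204. The highest of all mice was HSD17B1-KI 5, and the log2 fold change was -0.22 (SE 0.14, adjusted p = 0.662, limma). Upk1b (ENSMUSG00000049436, chromosome 16 from 38773184 to 38800328) ranged from 1587 to 1898 in HSD17B1-KI with a median of 1731, and from 1739 to 2937 in WT with a median of 1956. WT 4 stood well above all other mice for Upk1b, and 4 of the 7 HSD17B1-KI mice were below every WT mouse. Its log2 fold change was -0.21 (SE 0.094, adjusted p = 0.479, limma), and the exact permutation p was 0.0148, unadjusted.

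Msln (ENSMUSG00000063011, chromosome 17 from 25748613 to 25754378) ranged from 1167 to 1599 normalized counts in HSD17B1-KI with a median of 1379, and from 1403 to 2522 in WT with a median of 1624. The highest value was that of WT 1, and 4 of the 7 HSD17B1-KI mice were below every WT mouse. The log2 fold change of Msln was -0.31 (SE 0.12, adjusted p = 0.365, limma; exact permutation p = 0.0179, unadjusted). Muc16 (ENSMUSG00000032134, an identifier without a position in the annotation used) had the fewest counts, which also depend on transcript length, at 189 to 303 in HSD17B1-KI with a median of 263 and at 233 to 632 in WT with a median of 332. WT 4 was again the highest mouse, WT 5, WT 6 and WT 7 lay within the HSD17B1-KI range, and the log2 fold change was -0.45 (SE 0.19, adjusted p = 0.425, limma).

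WT 1 and WT 8 changed Upk1b and Muc16 little and Upk3b and Msln somewhat more. Without them the log2 fold changes were -0.12 in Upk3b, -0.21 in Upk1b, -0.23 in Msln and -0.43 in Muc16, all with adjusted p of at least 0.534 by limma. The mean level in HSD17B1-KI was then 0.931 of that in WT for Upk3b, 0.850 for Upk1b, 0.853 for Msln and 0.700 for Muc16.

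Krt7, Krt8, Krt18 and Krt19 encode keratins of simple epithelia, of which KRT8 and KRT18 pair with each other in 1 filament, and EPCAM is an adhesion protein of the epithelial membrane. Krt8 (ENSMUSG00000049382, chromosome 15 from 101996698 to 102004482) and Krt18 (ENSMUSG00000023043, chromosome 15 from 102028180 to 102032027) are neighbours whose promoters are printed above. Krt8 ranged from 1728 to 3469 normalized counts in HSD17B1-KI with a median of 1892, and from 1870 to 8635 in WT with a median of 2611. WT 1 with 8635 and WT 8 with 8009 were far above the third highest mouse, WT 4 with 4202. The log2 fold change of Krt8 was -0.67 (SE 0.31, adjusted p = 0.498, limma), and -0.25 (SE 0.19) without WT 1 and WT 8.

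Krt18 showed the same mice at the top, with 7992 in WT 8 and 7861 in WT 1, while the other 13 mice lay between 1219 and 3183. Its median was 1685 in HSD17B1-KI and 2129 in WT. Krt18 had a log2 fold change of -0.60 (SE 0.37, adjusted p = 0.639, limma) with all mice and of -0.095 (SE 0.22) without these libraries. Among those 13 mice, HSD17B1-KI 1 was the highest, so the order of the groups was not kept at the upper end.

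Krt19 (ENSMUSG00000020911, chromosome 11 from 100140810 to 100148665) ranged from 1857 to 3329 normalized counts in HSD17B1-KI with a median of 2697, and from 2374 to 10572 in WT with a median of 2958. Epcam (ENSMUSG00000045394, chromosome 17 from 87635979 to 87651129) ranged from 941 to 1913 in HSD17B1-KI with a median of 1192, and from 1141 to 4462 in WT with a median of 1571. In both genes WT 1 and WT 8 were the highest mice and WT 4 came next. With all mice, Krt19 had a log2 fold change of -0.58 (SE 0.31, adjusted p = 0.562, limma) and Epcam one of -0.59 (SE 0.29, adjusted p = 0.520, limma). Without WT 1 and WT 8 these were -0.16 and -0.21.

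Krt7 (ENSMUSG00000023039, chromosome 15 from 101411043 to 101430313) had the smallest log2 fold change of the keratins. It ranged from 1397 to 2923 normalized counts in HSD17B1-KI with a median of 1987, and from 1664 to 3826 in WT with a median of 2260. Its log2 fold change was -0.28 (SE 0.20, adjusted p = 0.698, limma) and -0.057 (SE 0.16) without WT 1 and WT 8. These libraries were the highest for Krt7 too, but HSD17B1-KI 1 and HSD17B1-KI 4 came directly after them.

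Counted over the 10 genes, the median log2 fold change was -0.51, compared with -0.022 over all 21525 genes. All 10 were below 0, as were 55.2% of all genes. At an unadjusted p under 0.05, 5 of the 10 were lower in HSD17B1-KI (Cxadr, Upk1b, Krt8, Msln and Muc16), compared with 4.64% of all genes. Without WT 1 and WT 8 the median was -0.21, all 10 were still below 0 (51.8% of all genes), 2 had an unadjusted p under 0.05 (Cxadr and Msln; 4.04% of all genes), and none was DE (0.0418% of all genes). The adjusted p of the 9 markers ranged from 0.158 to 0.972 over the alternatives. Ovarian RNA cannot tell the number of surface cells from the RNA per cell. Many of the keratins and EPCAM are also made by the oviduct epithelium, as said above, and the cause of these differences was not tested.

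**Figure D2:**
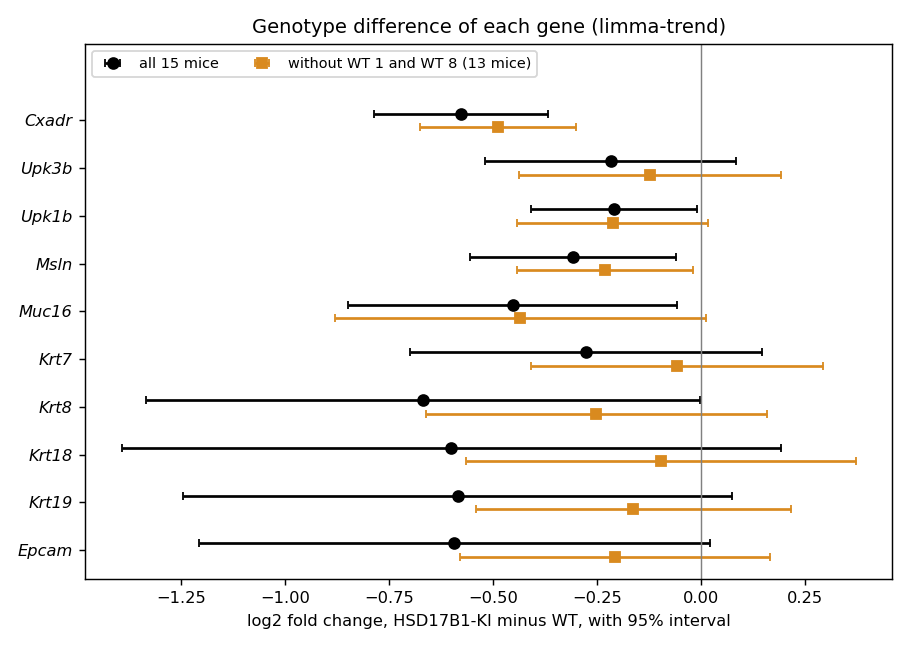
Log2 fold change of each gene (HSD17B1-KI minus WT, x axis) with its 95% interval from limma-trend, with all 15 mice (black) and without WT 1 and WT 8 (orange, 13 mice). Cxadr moves from -0.58 to -0.49, whereas Krt8 moves from -0.67 to -0.25 and Krt18 from -0.60 to -0.095.

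Set per kilobase of exon, Krt19, Krt18 and Krt8 had the highest levels and Krt7 and Cxadr the lowest of the 9 genes with a known length. The length was that of all annotated exons of a gene together, which can exceed that of the transcript made. It was 7.049 kb for Krt7 and 7.4 kb for Cxadr, but 1.958 kb for Krt8, 1.855 kb for Krt19 and 1.437 kb for Krt18. The order therefore depends on the annotation and is not a ranking of transcript numbers. In HSD17B1-KI, Krt19 had 1438 ± 250 normalized counts per kb (SD, n = 7), followed by Krt18 with 1342 ± 479 and Krt8 with 1157 ± 330. Upk1b (832 ± 49.0), Upk3b (789 ± 189) and Epcam (599 ± 153) came next. Msln had 454 ± 54.9, Krt7 had 283 ± 77.9 and Cxadr had 152 ± 14.6. The ranges over mice overlapped between every neighbouring pair in this order except Krt7 and Cxadr, where the lowest Krt7 level was 198 and the highest Cxadr level was 171 per kb.

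In WT the order per kb was Krt19, Krt18, Krt8, Epcam, Upk1b, Upk3b, Msln, Krt7 and Cxadr. Krt19 had 2525 ± 1713 normalized counts per kb (SD, n = 8) and Cxadr had 228 ± 36.4. Epcam had 1008 ± 610, above both uroplakins, but the ranges of the 3 genes overlapped. In WT without WT 1 and WT 8 the order was that of HSD17B1-KI, since Epcam then had 688 ± 168 (SD, n = 6), below Upk1b with 979 ± 216 and Upk3b with 847 ± 133. Krt19 had 1654 ± 582 and Cxadr had 213 ± 24.0 in these 6 mice.

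Across all 15 mice, the 9 markers formed a tight and a loose group, a grouping made after the values were seen. For this, each gene's log2 values were taken as deviations from the mean of their genotype, so that a genotype difference could not make a correlation. Among Krt7, Krt8, Krt18, Krt19 and Epcam the 10 correlations ranged from 0.78 to 0.98, and the highest was that of Krt8 with Krt18. Among Upk3b, Upk1b, Msln and Muc16 the 6 correlations ranged from 0.41 to 0.75, the highest being that of Upk1b with Muc16. Without WT 1 and WT 8 the median fell from 0.93 to 0.75 in the first group and was 0.52 and 0.60 in the second. Between the groups the median was 0.46 with all mice and 0.61 without these libraries. With a median of 0.60 inside it, the second group was then not set apart from the first. These correlations are descriptions over the same 15 libraries.

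**Figure D3:**
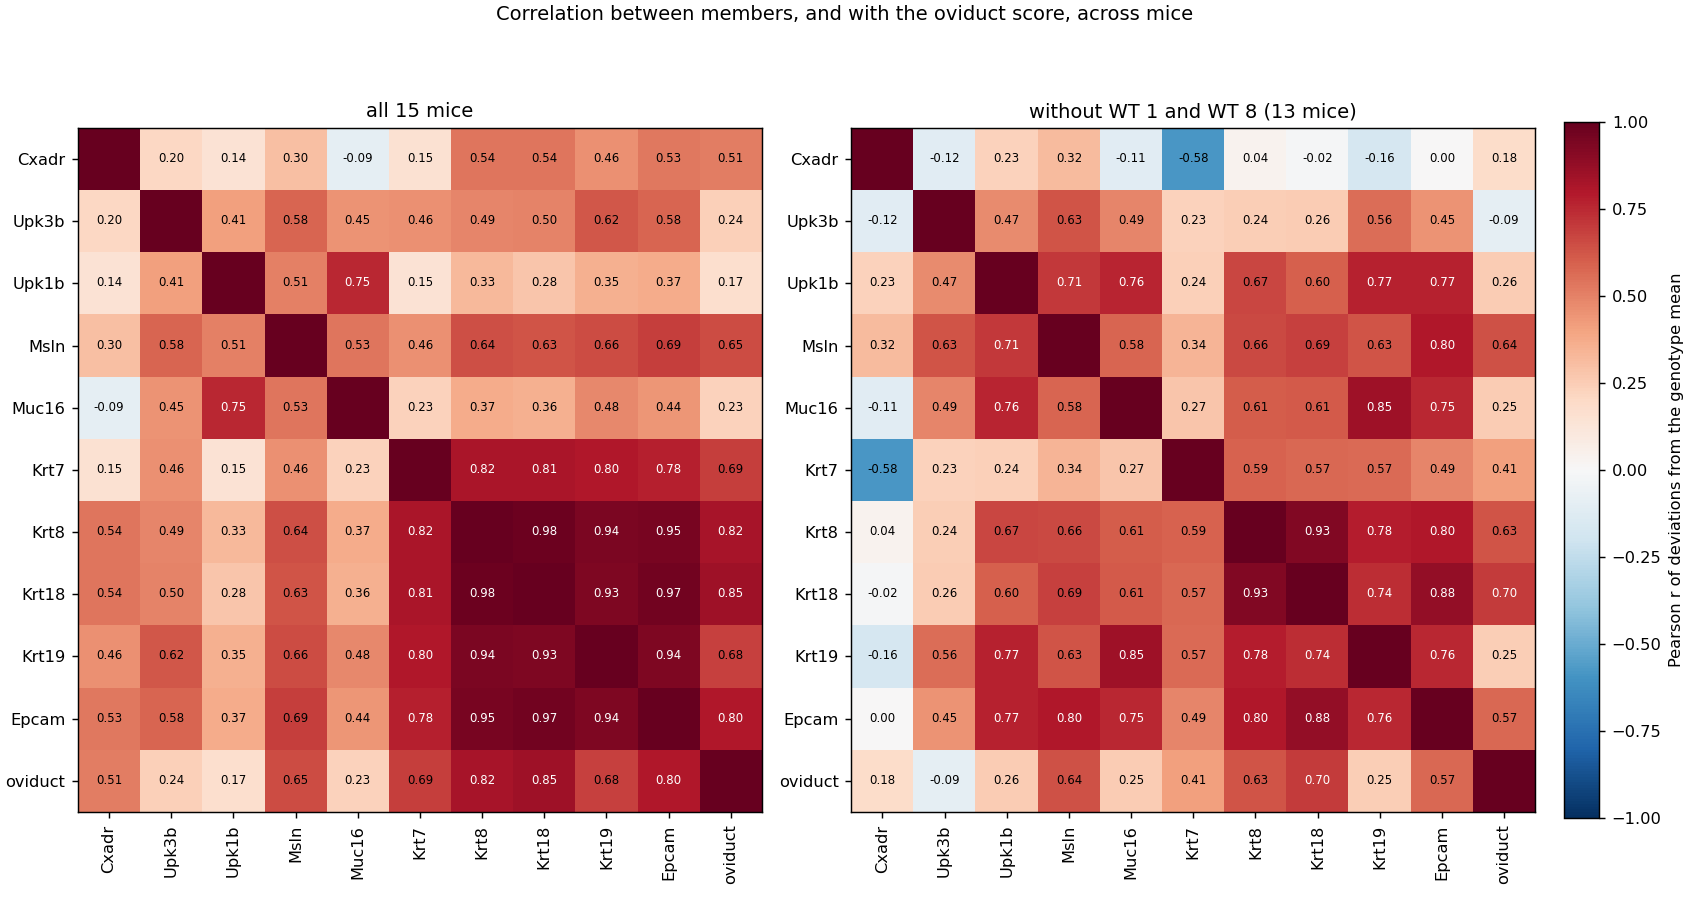
Pearson r between the 10 genes, and with the oviduct score, of deviations from the genotype mean, for all 15 mice (left) and 13 mice (right), from -1 (blue) to 1 (red). The block of Krt7, Krt8, Krt18, Krt19 and Epcam is at least 0.78 on the left, and the row of Cxadr fades from up to 0.54 on the left to between -0.58 and 0.32 for the 9 markers on the right.

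The keratins and Epcam moved with the oviduct genes. The oviduct score was the mean of the centred log2 values of 11 oviduct markers, none of them among the 10 genes. With genotype as a term, 5 of the 10 genes rose with this score at an adjusted p under 0.05 by limma over all genes: Krt18 (r = 0.85, adjusted p = 0.000395), Krt8 (r = 0.82, adjusted p = 0.00104), Epcam (r = 0.80, adjusted p = 0.00223), Krt7 (r = 0.69, adjusted p = 0.0270) and Krt19 (r = 0.68, adjusted p = 0.0273). Of all genes, 10.1% passed this test. Msln (r = 0.65, adjusted p = 0.0669) came close to the threshold, and Cxadr (r = 0.51, adjusted p = 0.226), Upk3b (r = 0.24), Muc16 (r = 0.23) and Upk1b (r = 0.17) did not pass.

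The mice farthest from the median of the score were WT 1 and WT 8. Without them none of the 10 genes passed, compared with 3.67% of all genes, so the 5 genes passed the threshold only with these libraries included. Of these 5, the correlation was then 0.70 for Krt18 (adjusted p = 0.0833, limma), 0.63 for Krt8, 0.57 for Epcam, 0.41 for Krt7 and 0.25 for Krt19. It was 0.64 for Msln, 0.18 for Cxadr and -0.088 for Upk3b. In HSD17B1-KI alone (n = 7), which holds neither library, r was 0.92 for Krt8, 0.88 for Krt18 and 0.74 for Epcam. It was 0.67 for both Krt19 and Krt7 there. Spearman's rho over all 15 mice was 0.76 for Krt18 (permutation p = 0.00297) and 0.50 for Cxadr (permutation p = 0.0738), both unadjusted and 2 of 10 such relations.

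Cxadr was also listed by genotype within the groups of mice set by Ovgp1. Ovgp1 split the mice into 3 separate clusters, with gaps of 3.70 and 3.10 on the log2 scale. In the lowest cluster, with 108 to 321 normalized counts of Ovgp1, Cxadr was between 986 and 1269 in 4 HSD17B1-KI mice and between 1284 and 1686 in 3 WT mice. In the intermediate cluster, with 4185 to 14963 counts of Ovgp1, Cxadr was between 1037 and 1202 in 3 HSD17B1-KI mice and between 1523 and 1746 in 3 WT mice. The genotypes did not overlap in either cluster, which was fixed by their separation over all mice and is no separate test. The highest cluster held WT 1 and WT 8 only, whose 1833 and 2190 counts of Cxadr were the highest of all mice.

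Because of these clusters no correlation of Cxadr with Ovgp1 over all mice is given. Within the lowest cluster, r was -0.45 (n = 7, exact permutation p = 0.389 over 144 orders within genotype) and rho was -0.23 (exact permutation p = 0.667). It was -0.53 without the 2 mice farthest from the median and turned to 0.18 without HSD17B1-KI 7, so it rests on single mice. Within the intermediate cluster r was -0.54 (n = 6, exact permutation p = 0.361 over 36 orders). A rise of Cxadr with Ovgp1 was thus not detected among the 7 and the 6 mice of these clusters. With log2 Ovgp1 as a covariate, the genotype difference of Cxadr was -0.52 (adjusted p = 0.0345, limma), and with the oviduct score it was -0.54 (adjusted p = 0.0250, limma).

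Cxadr followed the score of the 9 markers weakly, and only with WT 1 and WT 8 included. The correlation of Cxadr with the surface epithelium score, the mean of the centred log2 values of the 9 markers, was 0.44 with all mice, and rho was 0.30. Without WT 1 and WT 8, again the mice farthest from the median, it was -0.090, so the relation rests on these libraries. In WT alone r was 0.62 and in HSD17B1-KI alone it was -0.27. With the oviduct score in its place, r of Cxadr was 0.76 in WT alone and -0.19 in HSD17B1-KI alone. The surface epithelium score itself had r = 0.77 with the oviduct score, or 0.51 without WT 1 and WT 8. The 2 scores were therefore not separate measures. Cxadr had r = 0.49 with the mean of the keratins and Epcam and r = 0.14 with the mean of Upk3b, Upk1b, Msln and Muc16.

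By single gene, Cxadr correlated most with Krt8 (r = 0.54, permutation p = 0.0838), Krt18 (r = 0.54, permutation p = 0.0835) and Epcam (r = 0.53, permutation p = 0.0900), unadjusted and 3 of 9 relations. In limma with genotype and Cxadr as terms, the adjusted p of these genes was 0.343, 0.344 and 0.348. No gene of the 21524 reached an adjusted p under 0.05 in that fit of limma, in which 2742 genes had an unadjusted p under 0.05, and the relation was not run with another tool. Without WT 1 and WT 8 the correlations of Krt8, Krt18 and Epcam with Cxadr were 0.035, -0.016 and 0.0048. Krt7 then ran opposite to Cxadr (r = -0.58, permutation p = 0.0363, unadjusted; adjusted p = 0.861, limma). With the surface epithelium score as a covariate, the genotype difference of Cxadr was -0.49, which was no longer DE (adjusted p = 0.166, limma), and with log2 Ovgp1 added it was -0.52 (adjusted p = 0.174, limma).

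**Figure D4:**
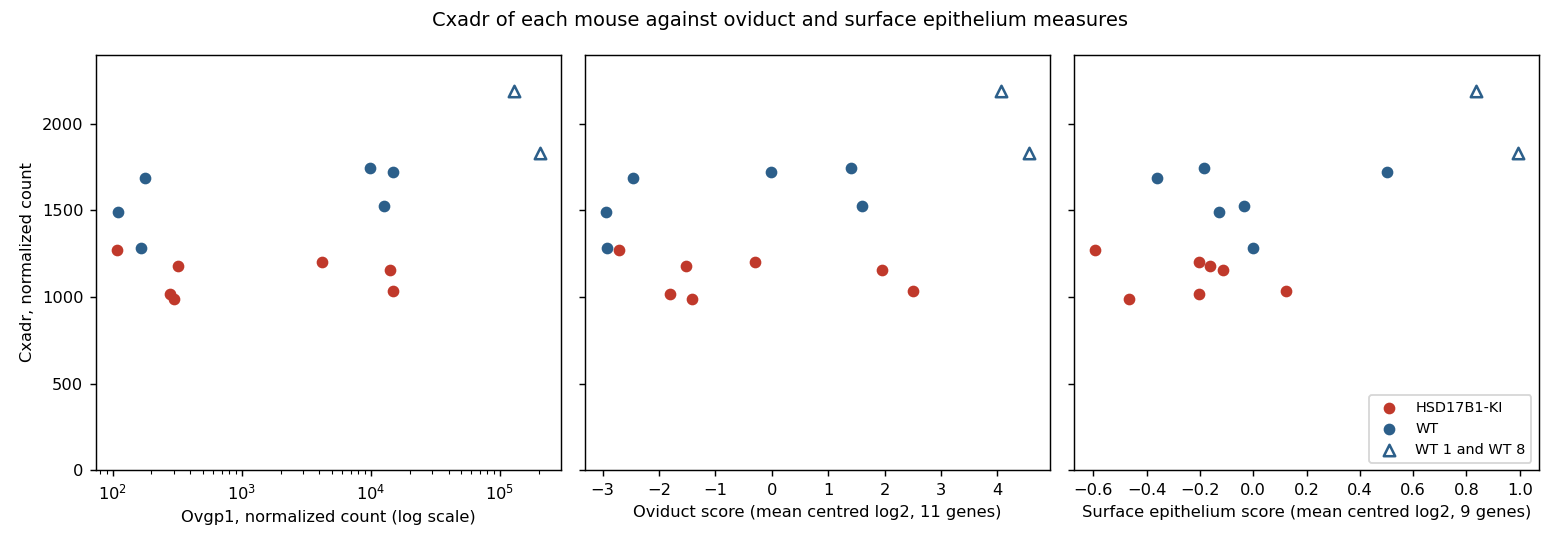
Normalized count of Cxadr in each mouse (y axis) against Ovgp1 (log axis), the oviduct score and the surface epithelium score (both mean centred log2 values), with HSD17B1-KI in red, WT in blue and WT 1 and WT 8 as triangles. The red points lie below the blue ones along all 3 axes, and the triangles lie at the upper right of each panel.

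The genes most like Cxadr across mice were not among the 9 markers. Of 18023 genes whose mean reached 10 normalized counts, the highest correlations over 15 mice were those of Zdhhc13 (r = 0.92), Tes (r = 0.90), Ajuba (r = 0.89), Fam171a2 (r = 0.89) and Stau2 (r = 0.88). Their correlations without WT 1 and WT 8 were between 0.77 and 0.88, which is no separate check, since the genes were picked with these same mice. As given above, no gene reached an adjusted p under 0.05 for its relation with Cxadr in limma. None of the 5 was DE, and their log2 fold changes were from -0.41 in Tes to -0.0062 in Stau2. Krt8, the marker most like Cxadr, ranked 1186. The surface epithelium score was followed most closely by Cbr2 (r = 0.98), Tox3 (r = 0.96), Hpn (r = 0.96), 5730559C18Rik (r = 0.96) and Dcxr (r = 0.95). Their correlations were between 0.89 and 0.96 without WT 1 and WT 8, and they were picked in the same way.

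Other epithelial genes did not pass the test. Of 14 junction genes, all had log2 fold changes below 0, as did 55.2% of all genes. None was DE by limma, compared with 0.214% of all genes. The median was -0.37. Without WT 1 and WT 8 it was -0.085, and 11 of the 14 were below 0, compared with 51.8% of all genes. With all mice the values ranged from -0.90 in Tjp3, a tight junction scaffold (adjusted p = 0.718, limma), to -0.12 in Magi1 (adjusted p = 0.810, limma). Cdh3, which encodes P-cadherin and was singled out after its values were seen, had 581 normalized counts on average in HSD17B1-KI and 758 in WT. Its log2 fold change was -0.38 (SE 0.077, adjusted p = 0.0566, limma; adjusted p = 0.000231, DESeq2), and it was -0.41 without WT 1 and WT 8.

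Of 9 tested relatives of Cxadr among the junctional adhesion proteins, none was DE by limma either, with log2 fold changes from -0.82 in Igsf5 to 0.0037 in Esam and a median of -0.16, or -0.046 without WT 1 and WT 8. The value of Igsf5 was 0.065 without these libraries, and that of Esam was -0.040. F11r, which encodes the junctional adhesion molecule JAM-A and was also singled out after its values were seen, had a log2 fold change of -0.36 (SE 0.094, adjusted p = 0.136, limma; adjusted p = 0.0171, DESeq2) and of -0.31 without these libraries. The summed level of these relatives was between 19833 and 22473 normalized counts in HSD17B1-KI and between 22741 and 29699 in WT. These ranges did not overlap, but this was not tested. How often sums of other genes separate in this way was not determined, so nothing is concluded from it. Vsig1 was below the filter.

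Relatives of the markers among uroplakins, keratins and mucins depended more on the libraries. Of the 10 tested, none was DE by limma, only Krt14, named after its values were seen, had an unadjusted p under 0.05, and the median log2 fold change was -0.44 with all mice and 0.10 without WT 1 and WT 8. The lowest was Upk1a with -1.32 (adjusted p = 0.731, limma), which was DE by DESeq2 (adjusted p = 0.0454) and 0.057 without these libraries, and the highest was Upk3a with 0.15 (adjusted p = 0.940, limma). Upk2 was below the filter.

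For comparison, 9 further mesothelial and surface epithelium genes were examined, all of which were detected. RNA of whole ovaries does not show which cells made it, so detection does not check the label of surface epithelium for these genes. Their median log2 fold change was -0.40 with all mice and -0.28 without WT 1 and WT 8, and none was DE by limma or DESeq2. At an unadjusted p under 0.05, 6 of the 9 were lower in HSD17B1-KI, compared with 4.64% of all genes, and 3 were lower without these libraries, compared with 4.04%. Lrrn4 had the lowest value, with a log2 fold change of -0.66 (SE 0.20, adjusted p = 0.221, limma), and Nkain4 the highest, with 0.16 (SE 0.19, adjusted p = 0.826, limma), which were -0.52 and 0.24 without WT 1 and WT 8. Their mean followed the oviduct score with r = -0.0018 over all mice, unlike the mean of the keratins and Epcam with r = 0.81, and this difference was not tested. The mean of these 9 genes had r = 0.23 with Cxadr, and r = 0.070 without WT 1 and WT 8. By single gene, r with Cxadr ranged from -0.48 in Aldh1a2 to 0.66 in Bnc1. For Bnc1 the permutation p was 0.0152, unadjusted and 1 of 9, the adjusted p was 0.280 by limma, and r was 0.55 without WT 1 and WT 8.

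Among markers of other tissues, only Aldh1a1 of the theca and interstitial genes was DE by limma. None of 5 adipose genes was DE by limma or DESeq2, with a median log2 fold change of -1.62 for the list and of -1.53 without WT 1 and WT 8. At an unadjusted p under 0.05, 4 of the 5 were lower in HSD17B1-KI, compared with 4.64% of all genes, and 3 were lower without these libraries, compared with 4.04%. The values ranged from -1.82 in Adipoq (adjusted p = 0.328, limma) to 0.44 in Plin1 (adjusted p = 0.463, limma). The summed level of the 5 adipose genes was between 2619 and 10909 normalized counts in HSD17B1-KI and between 3656 and 12921 in WT. All 4 smooth muscle genes had log2 fold changes below 0, as did 55.2% of all genes, with a median of -0.44. Without WT 1 and WT 8 all 4 were below 0 as well, compared with 51.8% of all genes, with a median of -0.36. The summed level of the smooth muscle genes was between 29133 and 55768 in HSD17B1-KI and between 33234 and 55692 in WT. Of the 4 theca and interstitial genes, Aldh1a1 had a log2 fold change of 1.02 (adjusted p = 0.0276, limma) and of 0.98 without these libraries (adjusted p = 0.112, limma), and the median was 1.09 and 1.07. By DESeq2, Aldh1a1 and Insl3, the latter named after its values were seen, were DE and higher. The summed level of all 4 theca and interstitial genes was between 499890 and 725109 in HSD17B1-KI and between 298264 and 491122 in WT. These ranges did not overlap, but this was not tested, and nothing is concluded from it. None of the granulosa, luteal and oocyte markers was DE by limma or DESeq2, only Figla of these, an oocyte gene named after its values were seen, had an unadjusted p under 0.05 in limma, and none of the markers of these tissues was at 0 in any mouse. The part of these tissues in the difference of Cxadr was not tested.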

How the data were processed

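Ovarian mRNA of 7 HSD17B1-KI and 8 WT mice was sequenced from stranded libraries. After trimming, the authors used STAR 2.7.3 for alignment to mm10, counted reads per gene and deposited normalized counts, a signal in which the counts are divided by 1 size factor per library. The counting program and annotation release are not given in the sources used here. Of the values, 100.0% were whole multiples of 1 step per library within 0.01 steps, so whole reads were recovered for edgeR and DESeq2. Totals ranged from 26544745 to 72362981 reads per mouse, and every member had at least 189 normalized counts in every mouse.

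Genotypes were compared with limma-trend, two-sided, after adding 1 to the normalized counts and taking log2, in the 21525 genes whose mean reached 2, with Benjamini-Hochberg adjustment at 0.05, and with exact permutation tests of single genes. Fold changes on this scale are understated for genes with few counts. Correlations were permuted within genotype with 100000 resamples, or exactly within Ovgp1 clusters, which were set by gaps of over 2 on the log2 scale. Alternatives were pseudocounts of 0.1 and 10, other filters and scalings, edgeR with TMM, DESeq2, a replicate block, covariates and leaving out each mouse. Leaving out WT 1 and WT 8 together, the scores of parts of the markers, the intermediate Ovgp1 cluster and the oviduct score as a covariate for genes other than Cxadr were added after the data were seen.

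The members and lists were chosen with earlier results of these data known. The text names the members, Ovgp1, the DE genes of each list or otherwise the highest and the lowest, the neighbours of Cxadr and the 5 genes most like Cxadr and like the score. Patj was found under an older symbol. Promoter motifs were searched on both strands of 300-base RefSeq windows. The scripts were tested on simulated data. Software was Python 3.11.15 with SciPy 1.17.1, pandas 2.3.3, NumPy 2.4.6 and matplotlib 3.10.9, and DESeq2 1.42.0, edgeR 4.0.16 and limma 3.58.1 in R 4.3.3.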

Additional observations from a re-analysis of the deposited data

Results flagged for a closer look

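For each of the 10 genes and Ovgp1 the highest and the lowest mouse of each genotype were compared with the rest by Dixon's ratio of gap to range on the log2 scale. In 22 groups examined, 1 value stood apart: Upk1b in WT 4, with 2937 normalized counts, where the gap to the next WT mouse was 0.687 of the range of the 8 mice, above the critical value of 0.526. Chance alone gives about 1 such value in 20 groups. WT 4 also had the highest Muc16 of all mice. Without WT 4 the log2 fold change of Upk1b was -0.13 and that of Muc16 was -0.33, and neither was DE with or without this mouse. The cause was not tested.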

How the results depend on the processing

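The direction of Cxadr was the same under all alternatives run, and so was that of the 9 markers in all 234 values from alternatives, none of which was DE. With limma 46 genes were DE, compared with 28 without a filter, 28 with quantile normalization, 455 by DESeq2, 9 without WT 1 and WT 8, and 6 to 139 when 1 mouse was left out. The number of DE members was 1, and it was 0 without WT 1 and WT 8 and 0 to 1 when 1 mouse was left out. The log2 fold change of Cxadr, -0.58, ranged from -0.63 to -0.52 when 1 mouse was left out. It was -0.49 (adjusted p = 0.0802, limma) without WT 1 and WT 8, -0.49 (adjusted p = 0.166) with the surface epithelium score and -0.52 (adjusted p = 0.174) with this score and log2 Ovgp1 as covariates.

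The replicate numbers did not pair the mice: the correlation of same-numbered mice was over 0.1 in 2 of 7 pairs and ranged from -0.55 to 0.55, and 1 of 7 HSD17B1-KI mice correlated best with its own number. With a replicate block, in which WT 8 has no partner, 0 genes and 0 members were DE in limma, with 1730 genes at an unadjusted p under 0.05, and Cxadr had -0.52 (adjusted p = 0.371, limma).

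The correlation of Cxadr with Ovgp1 in the lowest cluster, -0.45, ranged from -0.73 to 0.18 when 1 mouse was left out, and single genotypes were not run because they held 3 or 4 mice. The correlation of Cxadr with the surface epithelium score, 0.44, was -0.27 in HSD17B1-KI alone, -0.090 without WT 1 and WT 8, which were also the 2 mice farthest from the median, 0.14 with Upk3b, Upk1b, Msln and Muc16 alone, and 0.22 to 0.56 when 1 mouse was left out. Near 0, the sign turned in Btg3 (0.016 with quantile normalization), Esam (-0.022 with the replicate block, -0.015 with the oviduct score, -0.040 without WT 1 and WT 8, -0.029 to 0.038 without single mice), Igsf5 (0.065) and Upk1a (0.057) without WT 1 and WT 8, and, without single mice, in RP23-156A3.2 (-0.063 to 0.097) and Upk3a (-0.027 to 0.45). The causes were not tested.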
